A study of Saccharomyces cerevisiae with 2 samples.

Results

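The 56 genes described here encode the proteins of the small (40S) subunit of the cytosolic ribosome of the budding yeast Saccharomyces cerevisiae. They were taken by name: every gene probe on the array whose gene name is RPS followed by a number and, where there is one, the letter A or B. They occupy 93 of the 10263 gene spots and are 56 of the 6256 genes measured, with 1 probe each; 37 of them lie in 2 spots and 19 in 1. The 56 genes make up 32 protein families, of which 24 have an A and a B copy and 8 have a single gene. The study set wild type cells against cells carrying a YDR374C deletion, both in BY4741, a haploid laboratory background that lacks HIS3, LEU2, MET17 and URA3. Both cultures were in SD, a synthetic glucose medium, and were taken in mid-exponential phase at an OD600 of 0.7. Each of the 2 arrays compared Cy3-labelled (green) wild-type RNA with Cy5-labelled (red) RNA of the deletion strain. The dyes were never swapped, so a fixed dye effect of a probe cannot be told apart from a strain difference. Whether the arrays came from separate cultures is not stated, and p-values measure only how far these 2 arrays spread, which may be technical.

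The small subunit reads the messenger RNA. Its head and its body close around the mRNA channel, and the decoding centre between them checks each transfer RNA against its codon. Ribosomal protein genes are among the most strongly transcribed genes of growing yeast, and their promoters are bound by the general factor Rap1 together with Fhl1 and its coactivator Ifh1. Most exist as pairs left by an ancient genome duplication, whose A and B copies encode identical or nearly identical proteins from separate promoters. YDR374C encodes Pho92, a reader protein for methylated mRNA.

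On each array both channels of every RPS spot were well above background. Their median processed signals, the scanner software's own corrected intensities, were 10460 (green) and 9262 (red) for array 1, and 11840 and 10700 for array 2. Red was saturated in 8 RPS spots of array 1 and 21 of array 2, and green in 1 spot of each, that of RPS2. That is 8.6% and 22.6% of RPS spots, against 0.77% and 1.63% of all gene spots. The scanner software marked 19.4% and 12.9% of RPS spots as outliers, against 6.47% and 8.92% of all gene spots. Outlier spots were left out and saturated ones kept, and both are described apart below; 46 of the 56 genes could then be tested.

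The deleted gene was dim in both channels and did not lose its signal in red. YDR374C read 157.1 in green against 122.9 in red (array 1) and 127.8 against 126.5 (array 2), and its log2 ratio, red over green after loess normalization, was -0.23 ± 0.03 (SE, n = 2). Each SE given is the moderated SE of the limma fit, which draws on all genes or pairs tested. It can be narrower or wider than the spread of a gene's own 2 values. URA3, which the BY4741 background lacks, read 120.4 in green against 154.5 in red (array 1) and 139.5 against 202.3 (array 2). HIS3, also lacking in that background, read 90.99 against 79.26 and 126.7 against 128.4. LEU2 (48.77 against 42.77 and 36.64 against 40.42) and MET17 (16.02 against 24.4 and 9.134 against 14.49) were dimmer, below YDR374C in both channels. Judged by URA3 in green, the wild type, a signal of this size does not show that a gene is present. YDR374C could therefore not serve as a check of the labels. URA3 nevertheless passed the test with a log2 ratio of 0.33 ± 0.04. Red is therefore named below by its label only, and every direction rests on the dye labels.

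After loess normalization more RPS genes were lower than higher in the deletion-labelled RNA, but after median centring more were higher than lower. Of the 46 tested genes, 25 were lower after loess, 10 were higher and 11 did not pass limma's test at an adjusted p of 0.05. By the same rule 73.1% of all 5641 genes tested were called, 36.7% lower and 36.4% higher; among the RPS genes 54.3% were lower and 21.7% higher. The median log2 ratio of the RPS genes was -0.12, against -0.00 over all genes, and 42 of 46 had 1 sign on both arrays. With each array only centred on its median, 11 of the RPS genes (23.9%) were lower and 21 (45.7%) higher, against 37.1% and 36.8% of all genes, and the median log2 ratio was 0.06. Among the 34 tested genes without any saturated spot, 16 were lower and 9 higher after loess, with a median log2 ratio of -0.06, which turned to 0.10 after median centring. These are bulk cultures, so fewer cells with a transcript and less of it per cell cannot be told apart.

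Most differences were small. Only 3 RPS genes, RPS29A, RPS15 and RPS2, had a called log2 ratio of -0.5 or below after loess and none had 0.5 or above, where 3.88% of all genes were that far lower and 4.13% that far higher. RPS2 was saturated in both channels, so its ratio is no settled size, and with saturated spots left out 2 genes were that far lower. With outlier spots kept 5 were, RPS28A (-0.51) and RPS19B (-0.59) among them, against 261 of the 6146 genes then tested. After median centring none was lower by 0.5, and 2 genes, among them RPS14B (0.53), were higher by that much.

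Genes of the head and of the body are given apart. Over all genes tested, 36.7% were lower and 36.4% higher after loess, and 37.1% lower and 36.8% higher after median centring. Of the 18 tested head genes 13 were lower and none was higher after loess (median log2 ratio -0.16), but after median centring 8 were higher and 6 lower (median 0.01). Of the 28 tested genes of the body and platform, 12 were lower and 10 higher after loess (median log2 ratio -0.03), and 5 were lower and 13 higher after median centring (median 0.07). With saturated spots left out, 16 head genes remained, 12 lower and none higher, and 20 body genes, 6 lower and 9 higher. Of all genes then tested, 37% were lower and 37% higher. The difference between head and body was not tested. Of 21 tested genes of the families found in all domains of life, 11 were lower and 6 higher after loess, but 5 lower and 10 higher after median centring. Of 25 tested genes of the other families, 14 were lower and 4 higher after loess, but 6 lower and 11 higher after median centring.

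**Figure D1:**
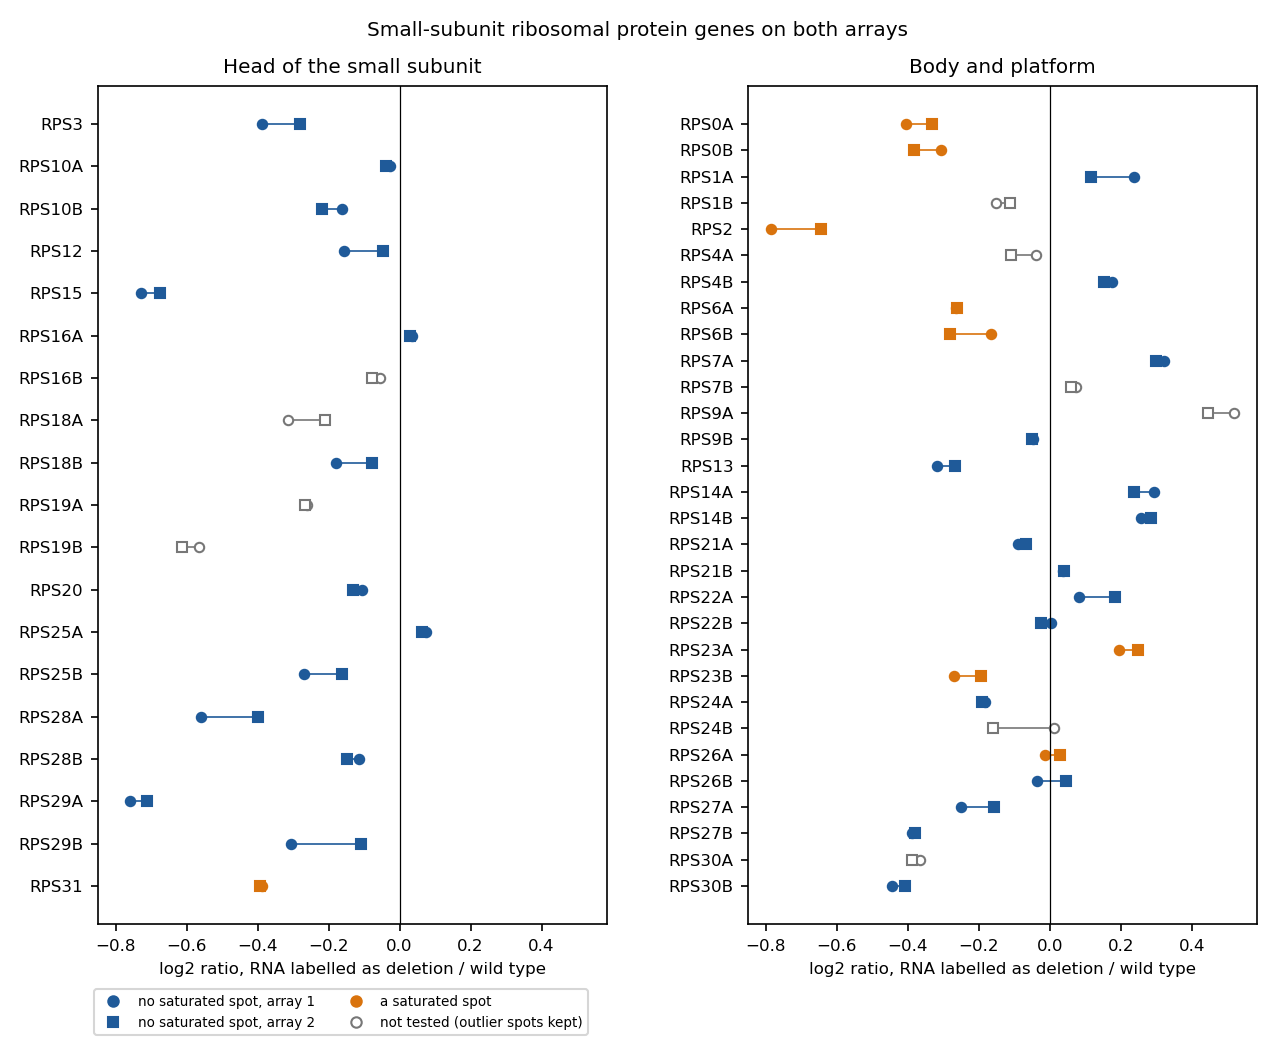
Log2 ratio (RNA labelled as deletion over wild type, after loess) of 49 RPS genes, with circles for array 1 and squares for array 2, the genes of the head on the left and those of the body and platform on the right. Blue genes have no saturated spot, orange genes have at least 1, and hollow grey symbols are the 10 genes that were not tested, drawn with their outlier spots kept. None of the head genes shown is called higher after loess, though some are after median centring, and RPS29A, RPS15 and RPS2 lie farthest to the left.

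RPS29A encodes a small zinc-binding protein of the head. Its single spot read 14150 in green against 8366 in red (array 1) and 12430 against 7718 (array 2). Red was below green on both arrays, and the green and red values did not overlap. The log2 ratios, -0.76 and -0.71, averaged -0.73 ± 0.03 (SE, n = 2) or 1.66-fold lower (limma adjusted p = 3.26e-10), and the gene stayed lower after median centring (-0.48). RPS15 encodes a head protein that reaches towards the decoding centre and is needed for export of the precursor subunit. Its spots, 1 of which was marked as an outlier on array 1, read on average 38760 in green against 22280 in red (array 1) and 30960 against 18350 (array 2). None was saturated, and red lay below green on both arrays. Its log2 ratios, -0.73 and -0.67, averaged -0.70 ± 0.04, or 1.63-fold lower (limma adjusted p = 5.29e-10; -0.42 after median centring).

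RPS28A, for a head protein near the mRNA exit, read on average 8852 in green against 5980 in red (array 1) and 8274 against 6058 (array 2). Of its 2 spots, 1 was marked as an outlier on array 2. That spot counts in these readings but not in the ratio below, which was -0.51 with it kept. The channels again did not overlap, and the log2 ratios, -0.56 and -0.40, averaged -0.48 ± 0.04 (SE, n = 2), 1.39-fold lower. In the body, RPS30B and RPS27B were lowest among genes without a saturated spot. RPS30B, whose protein is small and basic, averaged -0.43 ± 0.03 from -0.44 and -0.41. RPS27B, for a zinc-binding protein, averaged -0.38 ± 0.03 from -0.39 and -0.38. Both stayed lower after median centring, with -0.24 and -0.22.

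RPS7A, which encodes a body protein, was among the 10 genes called higher. Its spots read on average 782.5 in green against 994 in red (array 1) and 1223 against 1505 (array 2). Red was above green within each array, and the log2 ratios, 0.32 and 0.30, averaged 0.31 ± 0.03 (SE, n = 2) or 1.24-fold higher (limma adjusted p = 1.33e-06). Median centring moved it little, to 0.28.

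The platform protein Rps14 forms part of the mRNA exit region and is known to repress the splicing of RPS14B. Both of its genes were higher, RPS14B by 0.27 ± 0.03 and RPS14A by 0.26 ± 0.04 (log2, SE, n = 2). Of the 2 spots of each, outlier marks took out 1 of RPS14B on both arrays and 1 of RPS14A on array 2. With marked spots kept the ratios were 0.31 and 0.25. RPS1A (0.18 ± 0.04), RPS4B (0.16 ± 0.03) and RPS22A (0.13 ± 0.04) were higher as well, and RPS23A is given with the saturated spots. Marks took out 1 spot of RPS4B on array 1 and 1 of RPS22A on array 2 (0.15 and 0.12 with them kept). All 10 higher genes were also higher after median centring, while RPS22A missed the threshold with the scanner software's own ratios (0.08).

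Of the 8 single-copy genes, 7 were lower and none higher after loess, but 4 were lower and 2 higher after median centring. The shares over all genes were 36.7% lower and 36.4% higher after loess, and 37.1% and 36.8% after median centring. RPS3 encodes a head protein that lines the mRNA entry site. It read 18600 in green against 13990 in red (array 1) and 18230 against 14660 (array 2), and its log2 ratios, -0.39 and -0.28, averaged -0.33 ± 0.04 (SE, n = 2). RPS13, for a body protein that contacts the large subunit, averaged -0.29 ± 0.04 from -0.32 and -0.27. RPS20, another head protein, read 2123 in green against 1951 in red (array 1) and 2041 against 1838 (array 2), and averaged -0.12 ± 0.03. RPS12, also of the head, averaged -0.10 ± 0.04 from -0.16 and -0.05 (limma adjusted p = 0.0235). After median centring RPS15 and RPS20 stayed lower, RPS3 (-0.07) and RPS13 (-0.04) did not pass, and RPS12 was higher (0.16). RPS2 and RPS31 have saturated spots and are given with them.

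The A and B copies were compared as the difference of their log2 ratios within each array, tested with limma over all 40 gene pairs that share a name stem and passed the filter, 38 of them ribosomal. The copies differed in 11 of 15 tested RPS pairs, against 65% of all 40 pairs and 60% of the 25 pairs other than RPS, a share near the background. The A copy had the higher ratio in 6 of the 11 and the B copy in 5. In 5 of the 15 pairs both copies were called lower on their own, in 2 both were higher, in 4 only 1 copy passed, in 2 neither did and in 2 the calls were opposite. The opposite calls, RPS23 among them, both rest on saturated spots. Of the 9 pairs without a saturated spot 8 had a called difference. Each probe keeps its own dye effect in these differences, and probes of near-identical copies may pick up both transcripts, which was not tested.

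RPS29 had the widest gap without a saturated spot. RPS29B read 26360 in green against 20550 in red (array 1) and 25980 against 22710 (array 2). Its log2 ratios, -0.305 and -0.110, averaged -0.21 ± 0.04 (SE, n = 2), against -0.73 for RPS29A. The difference, A minus B, was -0.45 and -0.60 on the arrays. Its mean, -0.53 ± 0.05, is a 1.44-fold gap (limma adjusted p = 1.18e-11). RPS28 had the same order. RPS28B stood at -0.13 ± 0.03 against -0.48 for RPS28A, and the mean difference was -0.35 ± 0.05 (limma adjusted p = 2.05e-07). Rps28 protein is known to bind the mRNA of RPS28B and to promote its decapping with the decay factor Edc3.

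In 4 of the pairs free of saturation the A copy had the higher ratio. RPS25, for a head protein needed for some internal initiation, had a log2 ratio of 0.07 for A, which did not pass, and -0.22 for B. The differences, 0.34 and 0.23, averaged 0.29 ± 0.05 (SE, n = 2; limma adjusted p = 7.03e-06). RPS27A had -0.20 and RPS27B -0.38, a difference of 0.18 ± 0.05 that was -0.01 after median centring, where both copies stayed lower. RPS10, for a protein of the head, had -0.03 for A, which did not pass, and -0.19 for B (difference 0.16 ± 0.05). RPS22 had 0.13 for A and -0.01 for B, which did not pass. Their difference of 0.14 ± 0.05 missed the threshold with outlier spots kept (0.13, limma adjusted p = 0.0806) and with the scanner software's ratios (0.10, limma adjusted p = 0.0731).

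In the other pairs free of saturation that had a called difference, the B copy had the higher ratio. RPS21 passed narrowly (-0.12 ± 0.05, limma adjusted p = 0.0471) with neither copy called on its own. It missed the threshold with outlier spots kept (limma adjusted p = 0.0985), after median centring (-0.05) and with the series table (limma adjusted p = 0.0796).

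Of the pairs free of saturation, RPS14 alone did not pass: its copies differed by -0.01, with a 95% interval from -0.11 to 0.09. RPS26, whose protein contacts mRNA at the exit, had 0.01 for A, which has a saturated spot, and 0.00 for B, and the interval of their difference ran from -0.10 to 0.11. The intervals for RPS0 (-0.12 to 0.08) and RPS6 (-0.14 to 0.06), which also have saturated spots, covered 0 as well.

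**Figure D2:**
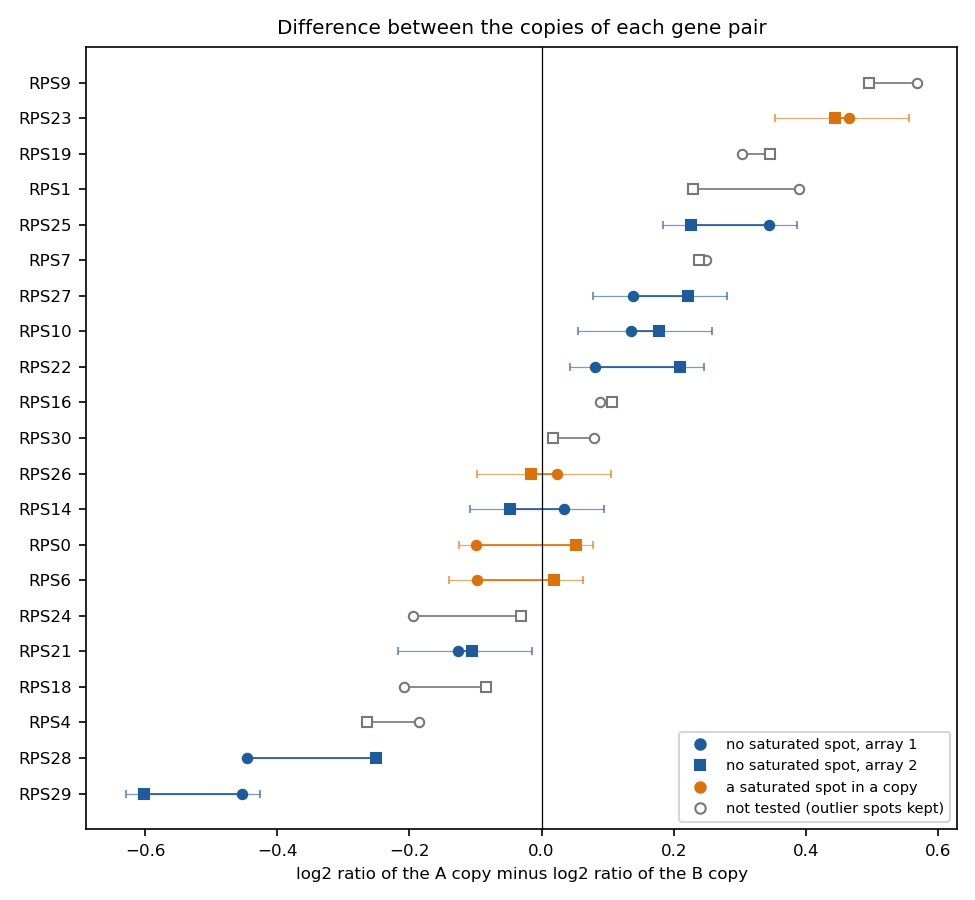
Difference between the log2 ratios of the A and the B copy for 21 RPS pairs, with circles for array 1, squares for array 2 and bars for the 95% interval of the mean of tested pairs. Pairs to the right have the higher ratio in the A copy; orange pairs hold a saturated spot, and hollow grey symbols are the 9 untested pairs with outlier spots kept. RPS29 lies farthest to the left, and the values of RPS23, on the right, rest on saturated spots.

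Saturated spots were found in 13 RPS genes. No red mean signal exceeded 65219 on these arrays, so a saturated red signal, and with it the ratio, is only a lower limit. RPS2, whose protein sits at the mRNA entry, was saturated in both channels on both arrays, with mean signals of 65243 in green and 65219 in red on array 1. Its log2 ratio of -0.71 is what the normalization assigns to signals at the limit, and no fold is given. RPS31 encodes a fusion of ubiquitin with a head protein. Its unsaturated spot gave -0.21 and -0.32 on the arrays and its saturated spot -0.57 and -0.47. Without the latter the gene was still lower (-0.26).

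Saturation touched 7 of the pairs. RPS23 encodes a decoding-centre protein, and every spot of both copies was saturated in red. RPS23A was called higher, with a mean log2 ratio of 0.22 after loess and 0.14 with the scanner software's ratios, but its spots gave 0.38 and 0.01 on array 1 and 0.47 and 0.03 on array 2. No fold is given for it. The direction of RPS23B (-0.23) is not settled, nor is the difference between the copies (0.45).

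Rps0 is needed to mature the ribosomal RNA, and Rps6 is phosphorylated downstream of the TOR pathway. On array 1, free of saturation, the spots of RPS0A gave -0.41 and -0.40, and the unmarked spot of RPS6B gave -0.17. RPS0B gave -0.18 in its unsaturated spot there and -0.43 in the saturated one. RPS6A gave -0.29 in its unsaturated spot on array 1 and -0.24 in the saturated one. All 4 genes were called lower after loess, and only RPS0A after median centring. RPS26A was saturated in 1 spot on array 2 (-0.02), beside an unsaturated one (0.08). Where an RPS probe lay in 2 unmarked spots, these differed within an array by a median of 0.05 on the log2 scale (42 cases, at most 0.16). Where at least 1 of the spots was saturated the median was 0.12 (14 cases, at most 0.44).

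**Figure D3:**
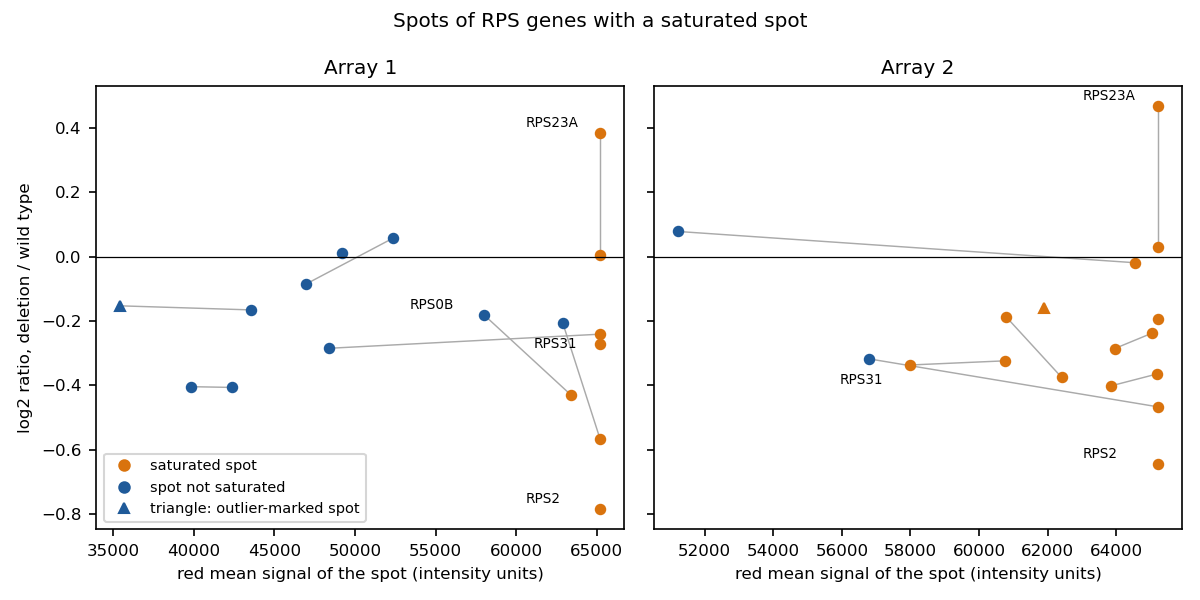
Log2 ratio against red mean signal for every spot of 10 of the RPS genes with a saturated spot, array 1 on the left and array 2 on the right, with lines joining the spots of 1 probe. Orange spots are saturated, blue ones are not, and triangles were marked as outliers. Saturated spots lie between 57992 and the highest red signal of 65219, and the unsaturated spots of RPS0B and RPS31 on array 1 lie above the saturated spots of the same probes.

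Outlier marks left 10 RPS genes untested, 9 of which have a single spot. With those spots kept, 5 of the 10 were lower, 1 was higher and 4 did not pass, where 37.6% of the 6146 genes then tested were lower and 36.4% higher. RPS19B had log2 ratios of -0.56 and -0.61 from a spot marked on both arrays (mean -0.59, limma adjusted p = 7.05e-09), and RPS19A had -0.26 and -0.27, marked on array 2. Rps19 is a head protein, and the gene of its human counterpart is mutated in Diamond-Blackfan anaemia. RPS30A (-0.38), RPS18A (-0.26) and RPS1B (-0.13) were the other lower genes. RPS9A was higher, with 0.52 in its marked spot on array 1 and 0.45 in the unmarked one on array 2. RPS7B (0.07), RPS16B (-0.07) and RPS4A (-0.07) did not pass, nor did RPS24B (-0.07), whose spot on array 2 was also saturated.

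With outlier spots kept, 14 of 24 RPS pairs differed, against 44.3% of all 61 pairs. Among the 9 pairs this added, the copies of RPS9 (0.53, A minus B), RPS19 (0.32), RPS1 (0.31), RPS7 (0.24) and RPS4 (-0.22) differed, and those of RPS16, RPS18, RPS24 and RPS30 did not pass. Where a probe had 1 marked and 1 unmarked spot, these differed by a median of 0.05 (17 cases, at most 0.36).

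The remaining calls depended on the normalization. RPS18B (-0.13), RPS24A (-0.19), RPS10B (-0.19) and RPS25B (-0.22) were lower after loess; after median centring RPS18B was higher (0.12), as was RPS28B (0.08), and the other 3 did not pass. RPS16A (0.03), RPS25A (0.07), RPS9B (-0.05), RPS10A (-0.03), RPS26A (0.01) and RPS26B (0.00) did not pass after loess and were higher after median centring. RPS21A (-0.08), RPS21B (0.04) and RPS22B (-0.01) passed in neither.

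The median-centred ratio lay above the loess ratio by a median of 0.25 over the 46 tested RPS genes, with a range from -0.03 to 0.28, while the median of all genes moved by -0.01. Across these genes, which share arrays and normalization, the loess ratio was lower in brighter genes (Pearson's r = -0.38, Spearman's rho = -0.39, n = 46), and the median-centred ratio showed less of this (r = -0.05, rho = -0.08). Under both normalizations 11 genes were lower and 10 higher. Among the lower ones were RPS0A, RPS2, RPS15, RPS20, RPS27A, RPS27B, RPS28A, RPS29A, RPS30B and RPS31. A further 11 were lower after loess only, and RPS12, RPS18B and RPS28B went from lower to higher. Tested in the same way, the authors' values in the series table gave 10 higher (21.7%) and 23 lower (50%) RPS genes, against 34.3% and 34.4% of all genes.

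**Figure D4:**
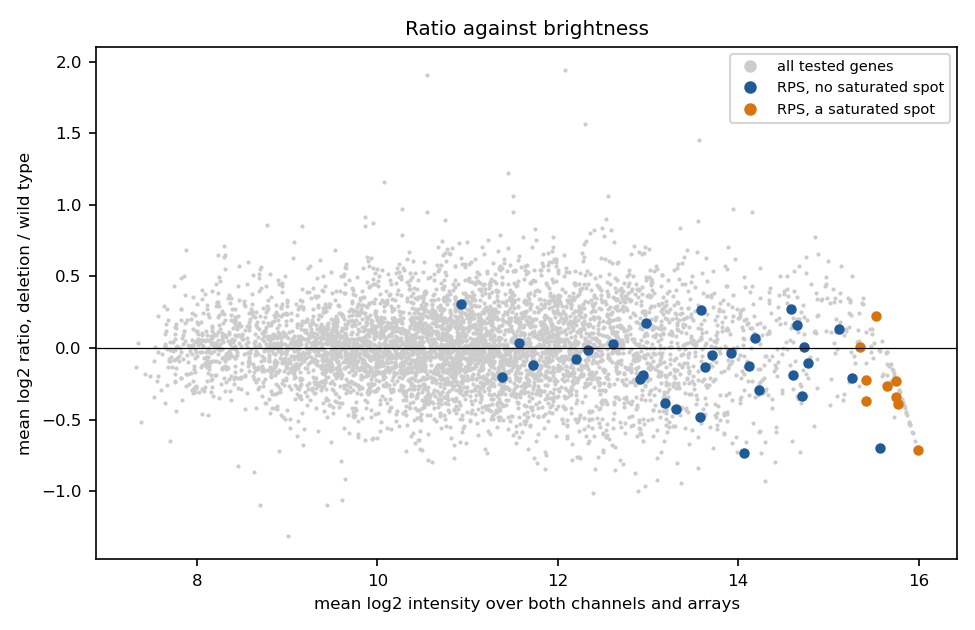
Mean log2 ratio after loess against mean log2 intensity over both channels and arrays for the tested genes (grey), RPS genes without a saturated spot (blue) and with one (orange). RPS genes lie to the bright side, and RPS2 lies farthest right among them.

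**Figure D5:**
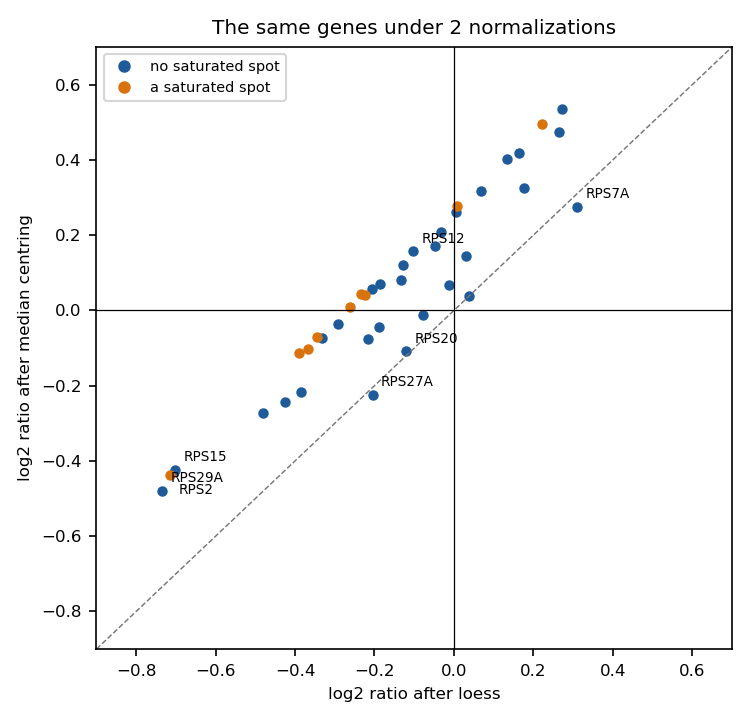
Log2 ratio of 39 tested RPS genes after loess (horizontal axis) and after median centring (vertical axis), with the dashed line marking equal values. Most genes lie above the line; RPS7A, RPS20 and RPS27A lie on it or close to it, and RPS12 lies in the upper left, lower after loess and higher after centring.

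Set beside the small subunit, 24 of 61 tested genes of the large subunit (RPL) were lower and 24 higher after loess (median log2 ratio 0.01). That is 39.3% each way, near the 36.7% and 36.4% of all genes. After median centring 13 (21.3%) were lower and 38 (62.3%) higher (median 0.16), against 37.1% and 36.8% of all genes. The difference between the subunits was not tested. ASC1, the yeast RACK1 and a further protein of the head that the name rule does not take in, had a log2 ratio of -0.65, but its spots were saturated in both channels on array 1 and in red, with 1 of them also in green, on array 2, so no fold is given.

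Of 20 listed assembly factors of the small subunit 17 were tested, 7 (41.2%) were higher and 6 (35.3%) lower, shares near the 36.4% and 36.7% of all genes (median log2 ratio 0.06). NOB1, the nuclease that makes the mature end of the ribosomal RNA (0.63 ± 0.03, SE, n = 2), the kinase RIO1 (0.63 ± 0.04), LTV1 (0.54 ± 0.04) and YAR1, the chaperone of Rps3 (0.50 ± 0.03), were highest. TSR4 and TSR2, the chaperones of Rps2 and Rps26, and the kinase RIO2 were lower (-0.30, -0.26 and -0.29) and were named after their values were seen. Of 11 listed regulators of ribosomal protein genes 6 (54.5%) were higher and 3 (27.3%) lower (median log2 ratio 0.10). RAP1 (-0.37 ± 0.04), HMO1 (-0.17 ± 0.04) and FHL1 (-0.17 ± 0.04) were lower. After median centring RAP1 (-0.40) and FHL1 (-0.20) stayed lower, but HMO1 (-0.0097) did not pass. TOD6 (0.30 ± 0.03), DOT6 (0.29 ± 0.03) and the kinase SCH9 (0.22 ± 0.03) were higher. The activators SFP1 (0.22 ± 0.04) and IFH1 (0.10 ± 0.03) were higher too, so the list's activators did not move one way. HMO1, FHL1, SFP1 and IFH1 were named after their values were seen.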

How the data were processed

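RNA of both strains was compared on 2 two-colour arrays of 1 slide, read in 1 scan, from 0.2 ug of RNA per the labels' protocols. Spot intensity in each channel comes from the deposited scanner files, written by Agilent Feature Extraction 9.5.3.1 per the file headers (9.3.2.1 per the submitters' processing notes). The deposited files also hold that software's dye-normalized log10 ratio of red over green and, in other columns, its quality flags, per the file headers. The authors' log2 values, deposited as a table of the whole series, had slopes of 0.987 and 0.988 against the scanner ratios, so they run red over green. Their medians were -0.00491 and -0.000163; the sources used here do not give their averaging or normalization.

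Background was corrected by normexp (offset 50, mean signal, median local background), and loess followed within each array with weight 0 for controls (limma 3.58.1, R 4.3.3). Outlier spots were left out, and spots of a probe were averaged. Genes were tested if, on both arrays, they had a spot without an outlier mark and were well above background in 1 channel or both. Of 6256 genes, 5641 met this, and 6146 were tested with outlier spots kept. Ratios were tested against 0 with limma (prior df 13.2) and Benjamini-Hochberg adjustment at 0.05. The SE of a gene is the moderated one of this fit, drawn mostly from all genes tested. Differences between A and B copies were fitted likewise over 40 pairs, for which limma estimated 1 common spread (SD 0.0732). The fits were tried on simulated data. Alternatives were outlier spots kept, saturated spots left out, median centring, the scanner ratios, the series table, no offset, other filters on dim spots, a limit on the size of the change, and single arrays.

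Some RPS genes are counted but not reported here by name or drawn in the figures. The members, lists, named genes and tests were chosen with earlier results of these data known. Named are YDR374C and marker genes as checks, the 8 highest and 8 lowest called RPS genes, single-copy genes and pairs with a called difference. Genes with saturated or outlier spots and up to 4 genes of each other list are named too. Further members are named to account for all. All 56 RPS genes matched the RefSeq R64 gene table. The 2 arrays limit the precision.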

Additional observations from a re-analysis of the deposited data

How the results depend on the processing

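Without an offset and with either other filter on dim spots, all 46 RPS genes and 15 RPS pairs kept their direction and their side of the threshold. Median centring gave 21 higher and 11 lower RPS genes and turned the medians of all RPS genes (0.062), of the head (0.0062) and of the body and platform (0.069). It also turned the ratios of RPS6A (0.0097), RPS6B (0.042), RPS9B (0.17), RPS10A (0.21), RPS12 (0.16), RPS18B (0.12), RPS23B (0.044), RPS24A (0.071), RPS28B (0.082) and RPS29B (0.057), and the RPS27 difference (-0.0085); the cause was not tested. Saturated spots left out gave medians of -0.063 for RPS genes and 0.035 for body and platform, with fewer genes tested. Outlier spots kept gave -0.20 for the head and -0.062 for body and platform, with more genes tested, and the scanner ratios gave -0.048 for the latter. Single arrays gave medians from -0.136 to -0.096 for RPS genes, from -0.170 to -0.141 for the head and from -0.0416 to -0.0380 for body and platform, without a test. With an absolute limit of 0.5, 233 genes were higher and 219 lower, 0 and 3 of them RPS genes, and 2 RPS pairs differed. Under the settings other than that limit, wherever they could be tested, 9 higher and 11 lower RPS genes and 8 called pairs kept their call. Each array sets both strains against each other, so every test of a ratio is already paired within the array. Saturation limits the bright genes, and the 2 arrays limit the rest.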

Other observations

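Across the 15 tested RPS pairs the log2 ratio of the A copy and that of the B copy had Pearson's r = 0.35 and Spearman's rho = 0.25, and across the 9 pairs without a saturated spot r = 0.57 and rho = 0.62. The 23 tested RPL pairs had r = 0.83 and rho = 0.83, and the 21 of them without a saturated spot r = 0.80 and rho = 0.81. These are descriptions across gene pairs that share arrays, normalization and, in part, sequence, and the difference between the subunits was not tested.

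In the gene order of the RefSeq table, 7 pairs of neighbouring genes hold an RPS gene beside another ribosomal protein gene, and in 3 of them both were tested. RPS14B (0.27) and RPS22A (0.13) lie side by side and were both higher, while RPL39 on the other side of RPS22A was lower (-0.55). RPL21A beside RPS9B was higher (0.17), and RPS9B did not pass (-0.05).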
